A study of Mus musculus with 53 samples.

Results

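Sciatic nerve (SCN) of mice with a diet and streptozotocin model of type 2 diabetes that had gone back to control diet (HFD-STZ-DR) was compared with SCN of control mice of the same age (SD). The comparison asks what of the disease effect remained after dietary reversal, and where expression lay beyond the control level. Its samples were chosen by their labels, 6 HFD-STZ-DR and 8 SD samples at 24 weeks of age, which are 14 of the 53 samples of the series. Genes entered if their mean on the log2 scale in these samples reached the level of 10 on the linear scale and no value was above 22, and 17922 of 49568 genes did. The series covers RNA-seq of whole SCN in models of prediabetes and of type 2 diabetes at 16 and 24 weeks of age, each with and without a late change of diet. All groups used here were male C57BL/6J mice. SD mice stayed on the control diet and received no streptozotocin (STZ), and whether they were injected with vehicle is not given in the sources used here. HFD-STZ mice ate a high-fat diet with 60% of kcal from fat from 5 weeks of age and were injected with STZ at 12 weeks, 75 mg/kg and, 3 days later, 50 mg/kg. HFD-STZ-DR mice had the same diet and injections up to 16 weeks and then ate control diet for 8 weeks. The series record puts that diet at 13% of kcal from fat, and the study's own text gives a lower share. Beside them stand 8 HFD-STZ samples at 24 weeks, 5 HFD-STZ and 5 SD samples at 16 weeks, and 7 HFD-DR samples at 24 weeks, from mice that had the high-fat diet and the return to control diet without STZ. The labels name no animals, so p-values measure the spread between these samples. Counts for a gene list cover its members that passed the level filter. They are to be read beside all 17922 genes tested, of which 8558 had a higher and 9364 a lower mean. For a list, left-out ranges give the lowest and highest median over the 14 fits that each leave out 1 sample.

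STZ is toxic to the beta cells of the pancreas, and together with a high-fat diet it gives raised blood glucose on top of insulin resistance. A peripheral nerve holds axons whose cell bodies lie outside it, the Schwann cells that wrap them, and sheaths of perineurial cells, fibroblasts, vessels, immune cells and epineurial adipocytes. Adipocytes keep triglyceride in lipid droplets, and insulin and diet set how much they synthesise, store and release, while Schwann cells make large amounts of cholesterol and fatty acids for myelin.

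Myelin transcripts marked all samples as nerve. Pmp22, a myelin protein gene and the most abundant of the 15 myelinating Schwann cell markers, ran from 19.58 to 20.38 with a median of 20.13 on the log2 scale in SD samples and from 19.86 to 20.40 with a median of 20.20 in HFD-STZ-DR samples. The ranges overlapped almost fully. Over all genes, the first principal component held 46.9% of the variance and set 4 libraries apart at its low end, SD replicates 1, 3 and 5 at -36.9, -59.3 and -60.0 and HFD-STZ-DR replicate 4 at -90.4. These had the highest skeletal muscle scores of the 14 samples. The mean log2 value of the 14 skeletal muscle markers was 11.30, 12.24 and 14.92 in those SD samples and 14.91 in HFD-STZ-DR replicate 4, against medians of 10.11 in SD and 8.74 in HFD-STZ-DR samples. All 13 muscle markers tested had a lower mean in HFD-STZ-DR, with a median difference of -0.93, but 0 reached an unadjusted p under 0.05, and the median was -0.14 without HFD-STZ-DR replicate 2 and -2.14 without HFD-STZ-DR replicate 4, and turned to 1.48 with the adipocyte score as a covariate. It was -0.47 in the fit with library runs and -0.23 without the 4 libraries. The summed level of these markers ran from 10.96 to 21.16 with a median of 15.64 in SD samples and from 10.79 to 20.36 with a median of 13.86 in HFD-STZ-DR samples, with Acta1 the most abundant gene. HFD-STZ-DR replicate 2 had the lowest adipocyte score, 8.57, and the lowest mast cell score, 5.73. SD replicate 4 had the lowest adipocyte score of the SD samples, 10.12. Among the HFD-STZ samples, which serve as context, replicate 7 stood apart in neuronal transcripts. Nefh, the heavy neurofilament, was at 15.02 there against a group median of 9.32, so medians are given where that sample sets a mean. It also had 23 genes with values of 49.81 to 61.36, while 0 genes were above 22 in the other samples used here. These genes did not enter the comparisons with HFD-STZ at 24 weeks, where 9 of the 16 sensory neuron transcripts could be tested, and counts without replicate 7 are given below. No listed marker of any cell type was at 0 in all 14 samples. The labels carry library numbers, which fell into 8 runs of consecutive numbers, and 6 of these held both groups. Correlations between pairs of samples ran from 0.942 to 0.993 across genes, and 0 pairs were identical.

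**Figure D1:**
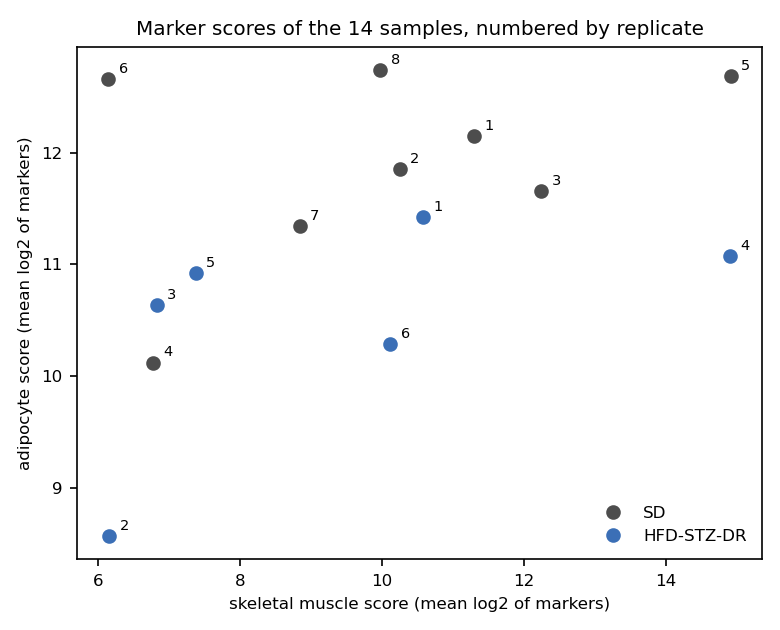
Adipocyte score against skeletal muscle score, each the mean log2 value of its markers, for the 14 samples, numbered by replicate within SD and HFD-STZ-DR. Muscle scores spread from 6.14 to 14.92 within SD alone, while the 6 HFD-STZ-DR samples all lie below the SD median of 12.00 for the adipocyte score.

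After reversal, 0 of 17922 genes (0%) differed from SD at an adjusted p under 0.05 in limma's test, and the smallest adjusted p was 0.311. An unadjusted p under 0.05 was found for 1645 genes, 808 higher (4.51% of those tested) and 837 lower (4.67%) in HFD-STZ-DR. No gene named here therefore passed in this comparison with all 14 samples, and differences are given with a 95% confidence interval (CI) for the genes described most closely. Exact permutation p-values are given for genes mostly named for a small p in these same samples. They are not independent support. The differences were uneven in size. A mean at least 1 log2 unit lower in HFD-STZ-DR was seen for 150 genes, 111 of them at an unadjusted p under 0.05, and a mean at least 1 unit higher for 2 genes. Half-widths of the CI had a median of 0.29 and quartiles of 0.20 and 0.45, so differences smaller than these were not resolved for most genes. All HFD-STZ-DR samples lay below all SD samples for 7 genes (0.0391%) and above them for 8 (0.0446%). Each of these orders is 1 of 3003 possible arrangements of the 14 samples. Shares of about this size therefore arise with no group difference, and a lack of overlap named below is a description only. The count past the threshold moved with SD replicate 4. Without it 21 genes passed, 18 lower and 3 higher, among them Klb, Orm1, Pnpla3, Thrsp, Adrb3 and Mrap. Without HFD-STZ-DR replicate 2, 0 passed and 1008 had an unadjusted p under 0.05, and without the 4 libraries that stand apart these numbers were 0 and 1602. In a fit that took runs of library numbers into account, 1 passed and 2107 had an unadjusted p under 0.05, 864 higher and 1243 lower. The split of the unadjusted genes moved with scaling, from 49.1% higher with the values as deposited to 64.3% higher with each sample centred on its median, which shifted the median difference of all genes from -0.01 to 0.04.

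**Figure D2:**
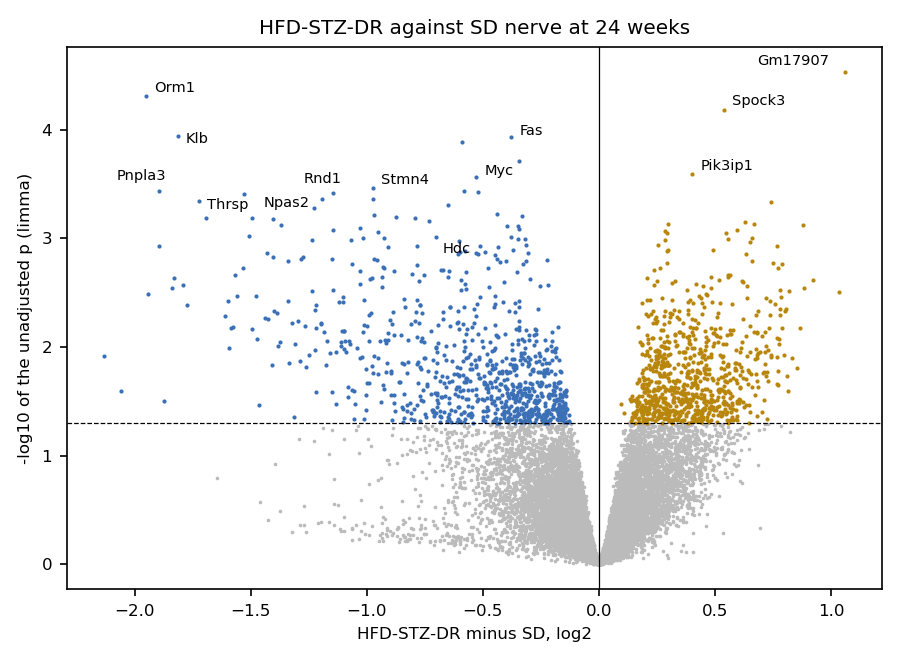
Difference HFD-STZ-DR minus SD (log2) against minus log10 of the unadjusted p for 17922 genes, with the genes of smallest p named. Genes at least 1 log2 unit away lie almost all on the lower side, 150 against 2.

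Adipocyte genes lay below control after reversal. All 13 adipocyte markers had a lower mean in the reversed nerves, 11 at an unadjusted p under 0.05 beside 4.67% of all genes, with a median difference of -1.47 against -0.01 over all genes. Adrb3, the beta-3 adrenergic receptor of fat cells, ran from 6.18 to 10.32 with a median of 9.06 in SD samples and from 5.13 to 7.73 with a median of 7.22 in HFD-STZ-DR samples, a difference of -1.94 (CI -3.13 to -0.76). Its exons overlap those of Gm45470, with which it shares 14.2% of the stretches of 100 bases in its longest transcript, and reads of that part cannot be told apart. For Pck1, which supplies glycerol for triglyceride, SD samples ran from 10.74 to 13.06 with a median of 12.34 and HFD-STZ-DR samples from 7.99 to 11.51 with a median of 10.60, a difference of -1.90 (CI -2.91 to -0.89, two-sided exact permutation p = 0.00200). For both genes the groups overlapped only at SD replicate 4, the lowest of its group. Retn, which codes for resistin, differed by -1.61 (CI -2.66 to -0.56), and the lipid droplet genes Plin1 and Cidec by -1.58 and -1.56. Adiponectin (Adipoq) differed by -1.50 and Pparg, the nuclear receptor that drives fat cell differentiation, by -1.17. Car3, the most abundant marker, ran from 13.85 to 16.67 with a median of 16.13 in SD and from 11.58 to 16.40 with a median of 14.24 in HFD-STZ-DR, and here the ranges overlapped over most of their length. The summed level of the markers had a median of 17.34 in SD samples and of 15.77 in HFD-STZ-DR samples, with the lowest at 15.19 and 13.42. In bulk tissue, fewer adipocytes and less RNA per adipocyte cannot be told apart. Without HFD-STZ-DR replicate 2 the median difference was -1.05 with 13 of 13 lower, and without SD replicate 4 it was -1.74. These were the ends of the left-out range.

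In HFD-STZ nerve the markers leaned the other way. Between HFD-STZ and SD nerve at 24 weeks their median difference was 0.34, with 9 of 13 higher and 2 at an unadjusted p under 0.05, while it was -1.75, with 12 of 13 lower at that level, when the reversed nerves were set against the HFD-STZ ones. These comparisons share the SD or the HFD-STZ-DR samples, so their values are set side by side only. At 16 weeks, in other mice, 13 of 13 markers were higher in HFD-STZ, with a median of 0.78 and 2 at an unadjusted p under 0.05. When the adipocyte score was added as a covariate, the genes at an unadjusted p under 0.05 in HFD-STZ-DR against SD numbered 248, and 0 passed. The score itself differs between the groups, so adipocyte content and reversal cannot be told apart in that fit.

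Leptin, the adipocyte hormone, was the marker whose promoter held the palindrome TTGCGCAA, the same on both strands, which is a binding sequence of C/EBP factors that act in fat cells. Its promoter is shown because of that match, from RefSeq on GRCm38.p6, chr6:29059971-29060270 on the plus strand, with the palindrome in capitals, beginning 55 bases before the start of the gene.
Lep: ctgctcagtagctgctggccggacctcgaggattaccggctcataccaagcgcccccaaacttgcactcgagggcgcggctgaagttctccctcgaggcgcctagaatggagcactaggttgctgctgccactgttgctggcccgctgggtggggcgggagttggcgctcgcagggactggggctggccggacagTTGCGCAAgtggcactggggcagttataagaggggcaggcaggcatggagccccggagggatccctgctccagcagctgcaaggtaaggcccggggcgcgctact
The palindrome is in 60 of 32851 promoters of this length (0.183%) and in 1 of the 10 adipocyte marker promoters at hand. A match is a description of letters. Lep differed by -1.29 between HFD-STZ-DR and SD nerve without reaching an unadjusted p under 0.05, and it was chosen after its values were seen.

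Genes of triglyceride storage and release were lower along with the markers. Of 11 lipid droplet proteins, 9 were lower, 5 at an unadjusted p under 0.05, beside 4.67% of all genes. Of the 11, 3 are also adipocyte markers. Plin2 coats droplets in most cell types and is not in the adipocyte list. It ran from 11.66 to 12.40 with a median of 12.08 in SD samples and from 11.42 to 11.66 with a median of 11.57 in HFD-STZ-DR samples, a difference of -0.49 (CI -0.75 to -0.22, two-sided exact permutation p = 0.00333). All 6 HFD-STZ-DR samples lay below all 8 SD samples, though the nearest values of the groups were equal to 2 decimals. HFD-STZ samples at 24 weeks ran from 11.49 to 12.96 with a median of 12.25. Bscl2, the seipin gene needed for droplet formation, differed by -0.45 (CI -0.72 to -0.17). Plin3 (0.01) and Hilpda (0.05) lay near 0. All 10 triglyceride lipases and regulators tested were lower, 4 at an unadjusted p under 0.05. Pnpla3, a lipase of droplets, ran from 7.59 to 10.66 with a median of 9.24 in SD and from 6.80 to 8.24 with a median of 7.41 in HFD-STZ-DR samples, a difference of -1.90 (CI -2.78 to -1.01). The groups overlapped at SD replicate 4, the lowest SD sample. Exons of Gm49513 overlap Pnpla3. The rate-limiting lipase Pnpla2 differed by -0.58 (CI -1.01 to -0.15), Lipe by -0.97 and Mgll by -0.33. Without HFD-STZ-DR replicate 2, 10 of the droplet genes and 10 of the lipase genes were lower. The left-out range was -0.82 to -0.44 for the droplet genes, with 4 to 7 at an unadjusted p under 0.05, and -0.61 to -0.37 for the lipase genes, with 4 to 6. With the adipocyte score as a covariate the median of the droplet genes was -0.03 against -0.63 without it and that of the lipase genes 0.02 against -0.47, with 0 and 1 lower at an unadjusted p under 0.05, while Lipe stood at 0.03 and Plin2 at -0.28.

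Among 12 triglyceride synthesis enzymes, 10 were lower and 5 of them had an unadjusted p under 0.05, beside 4.67% of all genes. Dgat2, which makes the last step to triglyceride, ran from 11.10 to 13.29 with a median of 12.33 in SD and from 10.36 to 12.19 with a median of 11.31 in HFD-STZ-DR samples, a difference of -1.12 (CI -1.82 to -0.42). Every HFD-STZ-DR sample was below the SD median, and the ranges overlapped at their ends. Its partner Dgat1 differed by -0.38 (CI -0.65 to -0.10), Agpat2 by -0.61 and the monoacylglycerol acyltransferase Mogat1 by -1.10. The first enzyme of the pathway, Gpam, was at -0.02. For fatty acid uptake and binding, 8 of 10 genes were lower and 4 had an unadjusted p under 0.05. Cd36, a fatty acid translocase, differed by -1.01 (CI -1.79 to -0.22), the acyl-CoA synthetase Acsl1 by -0.60 and Fabp4 by -1.29. Lpl, which frees fatty acids from lipoproteins, ran from 12.22 to 14.81 with a median of 14.51 in SD and from 10.63 to 15.19 with a median of 12.72 in HFD-STZ-DR samples, with the highest value of both groups in an HFD-STZ-DR sample and a CI of -2.41 to 0.03. Fatty acid oxidation and ketone genes were lower for 13 of 16, 1 at an unadjusted p under 0.05, with a median of -0.17. Without HFD-STZ-DR replicate 4 the median was -0.34 with 9 lower at an unadjusted p under 0.05, without HFD-STZ-DR replicate 2 it was -0.09, and with the adipocyte score as a covariate 14 of the 16 were higher, with a median of 0.07. For the uptake genes that covariate moved the median from -0.32 to -0.02, and for the synthesis enzymes from -0.26 to -0.16, with 0 and 1 lower at an unadjusted p under 0.05. Left-out ranges were -0.36 to -0.26 for uptake, with 2 to 5 genes at that level, the fewest without HFD-STZ-DR replicate 2, -0.31 to -0.22 for synthesis, with 4 to 5, and -0.34 to -0.09 for oxidation, with 0 to 9.

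Fatty acid synthesis divided by gene, with 11 of 15 lower and 5 of these at an unadjusted p under 0.05, beside 4.67% of all genes. Thrsp, a regulator of lipogenesis that responds to thyroid hormone, ran from 9.94 to 12.55 with a median of 11.36 in SD and from 8.45 to 10.55 with a median of 9.77 in HFD-STZ-DR samples, a difference of -1.72 (CI -2.55 to -0.90, two-sided exact permutation p = 0.00233). The ranges overlapped at SD replicate 4 and HFD-STZ-DR replicate 4. Scd1, the stearoyl-CoA desaturase, differed by -1.57 (CI -2.47 to -0.66) and was lower in HFD-STZ-DR in 6 of the 6 runs of consecutive library numbers that held both groups. Scd2, the desaturase of myelinating glia and the most abundant gene of the list, differed by 0.05, and the elongase Elovl6 by 0.16. Fasn, the fatty acid synthase, had a lower mean than in SD both with and without reversal. SD samples ran from 13.75 to 16.02 with a median of 14.67, HFD-STZ samples from 13.30 to 14.05 with a median of 13.77 and HFD-STZ-DR samples from 13.45 to 14.20 with a median of 13.76. The difference from SD was -0.91 (CI -1.55 to -0.27) after reversal and -1.04 (CI -1.60 to -0.47) without it, with the same SD samples in both. SD samples spread widely and their lower values overlapped both groups. Acly, which supplies its acetyl-CoA, differed by -0.63 (CI -1.15 to -0.11) after reversal, and by -0.56 in HFD-STZ at 24 weeks. With the adipocyte score as a covariate the list's median went from -0.24 to -0.13 and 1 gene was lower at an unadjusted p under 0.05, while 8 were in the fit with library runs. The median was -0.37 without HFD-STZ-DR replicate 4, the low end of a left-out range of -0.37 to -0.19 with 4 to 6 genes lower at that level, and -0.40 with 8 such genes without the 4 libraries. The transcription factor Srebf1 was at -0.02.

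Klb, the co-receptor for FGF21, ran from 5.51 to 7.91 with a median of 6.90 in SD samples and from 4.32 to 5.97 with a median of 5.17 in HFD-STZ-DR samples, a difference of -1.82 (CI -2.56 to -1.07, two-sided exact permutation p = 0.00233). Only the lowest SD value, of replicate 4, lay within the range of the HFD-STZ-DR samples, and Klb was lower in HFD-STZ-DR in 6 of the 6 runs with both groups. HFD-STZ samples ran from 5.52 to 8.29 with a median of 7.56, around the SD values. Klb was the 1 gene past the threshold (adjusted p under 0.05) when the run of consecutive library numbers was a covariate. Mrap, an accessory protein of melanocortin receptors in adrenal and fat, differed by -1.69 (CI -2.54 to -0.85) and Trhde, an ectoenzyme that degrades thyrotropin-releasing hormone, by -1.53 (CI -2.25 to -0.81). Hacd2, an enzyme of very long chain fatty acid elongation, differed by less, with tighter groups. It ran from 11.36 to 11.77 with a median of 11.52 in SD and from 11.01 to 11.28 with a median of 11.23 in HFD-STZ-DR samples, with no overlap, a difference of -0.34 (CI -0.49 to -0.19). Exons of Gm21691 overlap Hacd2 and those of Gm15723 overlap Trhde. Cmklr1, the chemerin receptor, also had all HFD-STZ-DR samples below all SD samples and differed by -0.60. It was named after its values were seen, like Tagln2 (-0.32) and Tmem135 (-0.33), which share that order.

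Orm1, an acute phase glycoprotein, had the largest distance below control among the named genes. It ran from 7.33 to 9.65 with a median of 8.57 in SD samples, from 7.14 to 10.46 with a median of 9.73 in HFD-STZ samples and from 5.44 to 7.34 with a median of 6.89 in HFD-STZ-DR samples. The difference from SD was -1.95 (CI -2.69 to -1.21, two-sided exact permutation p = 0.000666), and 5 of 6 HFD-STZ-DR samples lay below every SD sample. 6.95% of its sequence stretches are shared with Orm2. Haptoglobin (Hp) differed by -1.60 (CI -2.59 to -0.60) from SD after reversal and by 1.27 in HFD-STZ at 24 weeks. Lrg1, a leucine-rich glycoprotein, differed by -1.20 and 0.86 in those comparisons, and the complement gene C6 by -0.98 and 1.57. Of 16 acute phase and inflammation genes listed, 12 passed the level filter, and 11 of these were lower after reversal. The list had a median of -0.26 and a left-out range of -0.33 to -0.18. Lower at an unadjusted p under 0.05 were 4, beside 4.67% of all genes. With the adipocyte score as a covariate, 1 reached that level, while 9 were lower with a median of -0.24. C3, its most abundant gene, was at -0.16 and Lcn2 at 0.02. Among interferon-stimulated genes, 8 of 14 were lower and 1 had an unadjusted p under 0.05, Ifi27l2a, with a difference of -1.23 (CI -1.83 to -0.63). Their median was -0.06, and with the adipocyte score as a covariate it was -0.21, with 14 lower. The median took both signs when single samples were left out, -0.15 to 0.02, with 7 higher and 7 lower without HFD-STZ-DR replicate 4, and was -0.15 without the 4 libraries.

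Genes that marked the disease were back near control. HFD-STZ nerve differed from SD at 24 weeks for 6 of 17852 genes (0.0336%), all higher, and 19 without HFD-STZ replicate 6 or 10 without replicate 7. After reversal 1 of these 6 had an unadjusted p under 0.05 against SD. The 6 were chosen against the same SD samples, so their differences from SD after reversal are not independent of that choice. Tph2, which makes the serotonin precursor in neurons, ran from 3.16 to 4.45 with a median of 3.80 in SD and from 2.88 to 5.42 with a median of 3.33 in HFD-STZ-DR samples, against 4.78 to 8.91 with a median of 7.38 in HFD-STZ samples. Of the reversed samples 3 lay within the SD range, 2 just below it and replicate 4 above it, and the difference from SD was -0.13 (CI -0.85 to 0.60). Sez6l, a neuronal membrane protein, differed from SD by -0.35 (CI -0.87 to 0.17), the potassium channel Kcnj14 by -0.11 (CI -0.71 to 0.49) and the long non-coding RNA 1700047G03Rik by -0.45 (CI -1.12 to 0.21). Below the SD median lay 6 of 6 HFD-STZ-DR samples for Sez6l and 5 of 6 for Kcnj14 and for 1700047G03Rik. 20.4% of the Kcnj14 stretches are shared with Gm5522. The choline transporter Slc5a7 ran from 3.65 to 5.61 with a median of 4.86 in SD and from 3.26 to 4.83 with a median of 3.90 in HFD-STZ-DR samples, a difference of -0.70 (CI -1.43 to 0.03), all 6 below the SD median. These intervals all hold 0, but their ends allow remaining differences as large as many of those given above. Plppr4, a neuronal phospholipid phosphatase-related protein, was the exception. It ran from 3.82 to 4.78 with a median of 4.25 in SD, from 4.88 to 6.49 with a median of 5.94 in HFD-STZ and from 3.95 to 5.65 with a median of 4.93 in HFD-STZ-DR samples, and remained 0.68 above SD (CI 0.18 to 1.19, two-sided exact permutation p = 0.0176), with 5 of 6 samples above the SD median and replicate 2 below it.

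Between HFD-STZ-DR and HFD-STZ nerve, 15 of 17870 genes (0.0839%) differed past the threshold, all lower after reversal. 14 of these could be tested against SD, and 14 had a lower mean than SD, 9 at an unadjusted p under 0.05. They were chosen on the same HFD-STZ-DR samples, so this direction is not independent. Past the control level lay Ffar2, a receptor for short-chain fatty acids, which ran from 5.03 to 7.15 with a median of 6.35 in SD and from 4.02 to 5.78 with a median of 4.83 in HFD-STZ-DR samples, a difference of -1.40 (CI -2.10 to -0.70). The ranges overlapped at SD replicate 4. Aldh1a7, an aldehyde dehydrogenase, differed by -1.01 (CI -1.54 to -0.48) and the sulfotransferase Chst15, which Gm10584 overlaps, by -0.59. Tusc5, which takes part in glucose transporter traffic in fat cells, differed by -0.99 and the transferrin receptor gene Tfr2 by -0.45. The factor Klf14 differed by -0.61 (CI -1.14 to -0.07) and Tdrp by -0.32. The other gene, Saa3, was under the level filter in these 14 samples, at medians of 3.42 in SD and 2.81 in HFD-STZ-DR. The number of these calls moved with every library left out, to 167 without HFD-STZ replicate 6, 112 without HFD-STZ replicate 7, 8 without HFD-STZ replicate 4, 6 without HFD-STZ-DR replicate 4, and from 0 to 2 without any of the other 10.

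**Figure D3:**
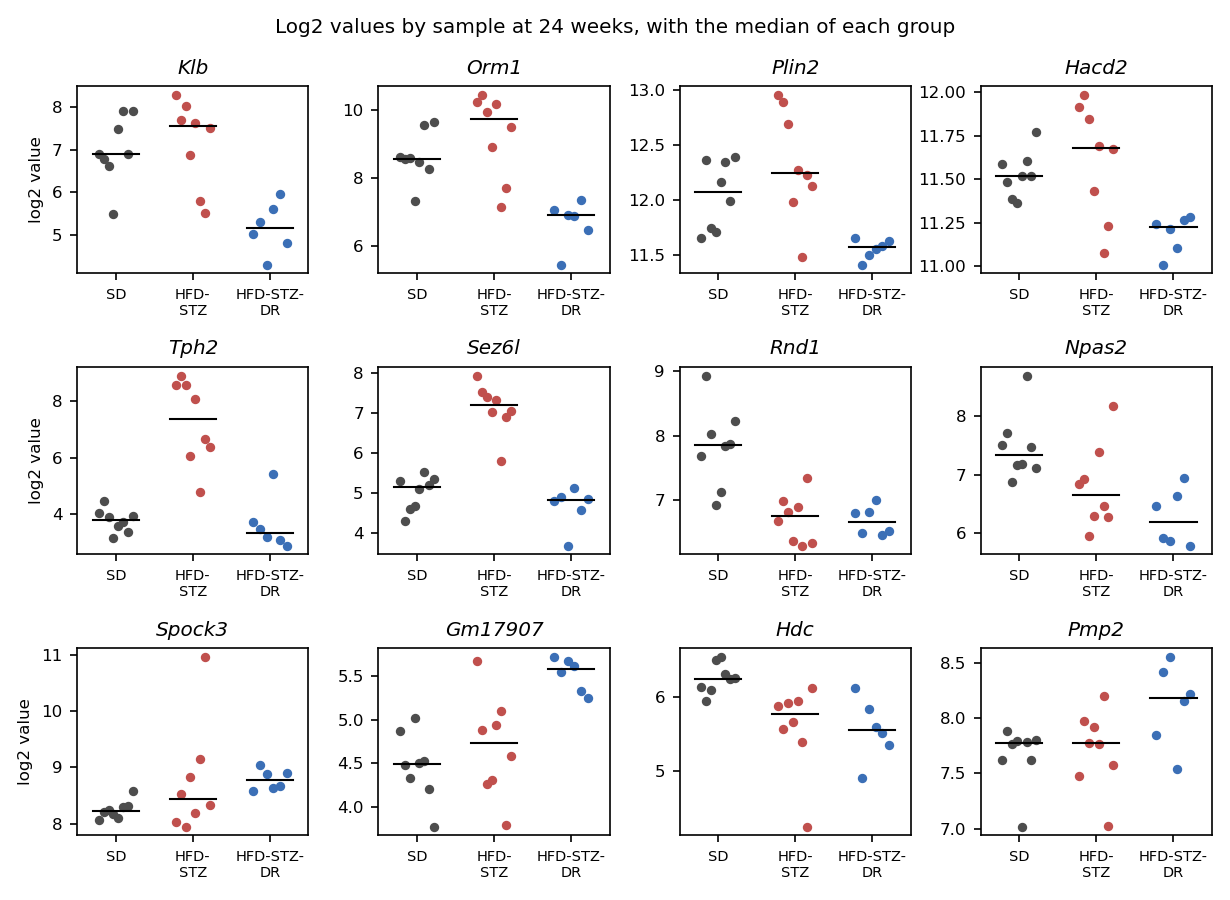
Log2 value of 12 named genes in every SD, HFD-STZ and HFD-STZ-DR sample at 24 weeks, with a bar at each group median. Klb, Orm1, Plin2 and Hacd2 have medians below SD after reversal. Tph2 and Sez6l have high medians in HFD-STZ and lie near SD after reversal but for single samples. All 6 HFD-STZ-DR values of Sez6l lie below its SD median. Rnd1, Npas2 and Hdc have low medians in both HFD-STZ groups, and Spock3, Gm17907 and Pmp2 have medians above SD after reversal.

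Some genes were followed through the HFD-STZ groups as well. Those of this paragraph were named for a small p in HFD-STZ-DR against SD, and the HFD-STZ differences at 24 weeks use the same SD samples, so a shared sign there is not independent. The mice at 16 weeks share no sample with them. Rnd1, a small GTPase that loosens the actin cytoskeleton, ran from 6.93 to 8.94 with a median of 7.85 in SD, from 6.30 to 7.35 with a median of 6.75 in HFD-STZ and from 6.46 upwards with a median of 6.67 in HFD-STZ-DR samples. Its difference from SD was -1.14 after reversal (CI -1.68 to -0.61, two-sided exact permutation p = 0.00133), -1.11 in HFD-STZ at 24 weeks (CI -1.63 to -0.60) and -1.13 at 16 weeks in separate mice (CI -1.71 to -0.54). 5 of 6 HFD-STZ-DR samples lay below every SD sample. HFD-DR nerve, without STZ, differed from SD by -0.89. The death receptor gene Fas ran from 9.65 to 9.98 with a median of 9.89 in SD and from 9.32 to 9.69 with a median of 9.47 in HFD-STZ-DR samples, a difference of -0.38 (CI -0.53 to -0.22), with an overlap at SD replicate 7 and HFD-STZ-DR replicate 4, and was at -0.19 (CI -0.41 to 0.03) in HFD-STZ at 24 weeks and at -0.58 (CI -0.90 to -0.26) at 16 weeks. Pik3ip1, an inhibitor of phosphoinositide 3-kinase, was higher by 0.40 (CI 0.22 to 0.58) after reversal, by 0.33 in HFD-STZ at 24 weeks and by 0.37 at 16 weeks. Its exons overlap the antisense gene Gm12592, though 0% of the stretches of its longest transcript are shared with another gene. The proto-oncogene Myc differed by -0.53 (CI -0.77 to -0.29) and the nuclear matrix protein gene Banp, which Gm27011 overlaps, by -0.58 (CI -0.85 to -0.31), with smaller differences of -0.26 and -0.25 in HFD-STZ at 24 weeks and of -0.22 (CI -0.54 to 0.11) and -0.46 (CI -0.75 to -0.17) at 16 weeks.

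Clock genes were compared in the same way. Npas2, which pairs with Arntl to drive clock transcription, ran from 6.88 to 8.69 with a median of 7.33 in SD and from 5.79 to 6.95 with a median of 6.20 in HFD-STZ-DR samples, a difference of -1.19 (CI -1.76 to -0.63, two-sided exact permutation p = 0.000666). The groups overlapped at 1 sample of each, SD replicate 3 and HFD-STZ-DR replicate 5. Arntl (BMAL1) differed by -0.75 (CI -1.19 to -0.32) and Nfil3, a repressor of clock output genes, by -0.84 (CI -1.49 to -0.19), while the repressor Per3 was higher by 0.44 (CI 0.17 to 0.72) and Bhlhe41 by 0.39. In the separate mice at 16 weeks, HFD-STZ differed from SD by -0.82 for Npas2, -0.88 for Arntl, -1.04 for Nfil3 and 0.65 for Per3. At 24 weeks without reversal these stood at -0.67, -0.49, -0.65 and 0.22. Of the 13 core clock loop genes 8 were higher and 5 lower after reversal, with a left-out range of 0.02 to 0.15, and of 6 output factors 4 were higher, with a range of 0.05 to 0.16. Dbp, 1 of the output factors, stood at 0.33 (CI -0.08 to 0.73) after reversal and 0.82 (CI 0.57 to 1.08) at 16 weeks. Nr1d1 differed by -0.10 after reversal and by 0.52 at 16 weeks, with an interaction estimate of -0.62 (CI -1.09 to -0.16). The time of day of tissue collection is not given by the labels, and its part was not tested. Of 10 glucocorticoid response genes, 6 were lower, with a median of -0.10 and a left-out range of -0.13 to 0.01. Fkbp5 differed by -0.69 (CI -1.19 to -0.20) and -1.01 at 16 weeks, Zbtb16 by -0.80, and Ddit4 was higher by 0.38.

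Mast cell genes had lower medians with and without reversal. All 10 markers had a lower mean in HFD-STZ-DR than in SD nerve, with a median of -0.73. Of these, 6 had an unadjusted p under 0.05, beside 4.67% lower over all genes. Hdc, the histamine-forming enzyme, ran from 5.95 to 6.55 with a median of 6.25 in SD, from 4.25 to 6.12 with a median of 5.77 in HFD-STZ and from 4.90 to 6.12 with a median of 5.55 in HFD-STZ-DR samples, a difference of -0.70 from SD (CI -1.07 to -0.34, two-sided exact permutation p = 0.000999). 5 of 6 HFD-STZ-DR samples lay below the SD range. The IgE receptor chain Fcer1a differed by -0.83 (CI -1.36 to -0.31) and the protease Cpa3 by -0.93. The list's median was -0.65 in HFD-STZ against SD and -0.75 in HFD-DR against SD, which share the SD samples, and 0.13 at 16 weeks. Summed levels ran from 11.44 to 12.63 with a median of 12.03 in SD and from 9.56 to 11.93 with a median of 11.64 in HFD-STZ-DR samples, with Tpsb2 the most abundant gene. Without HFD-STZ-DR replicate 2, the lowest, the median was -0.40, with 10 lower and 4 at an unadjusted p under 0.05. With the adipocyte score as a covariate the median was -0.17, with 10 lower and 1 at that level. The left-out range was -0.84 to -0.40, with 3 to 8 at an unadjusted p under 0.05.

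Macrophage markers were lower by less, all 15 of them, with a median of -0.37. An unadjusted p under 0.05 was seen for 5, beside 4.67% lower over all genes. Lyve1, which marks macrophages along vessels as well as lymphatic endothelium, ran from 8.79 to 10.75 with a median of 10.20 in SD and from 8.57 to 9.28 with a median of 9.03 in HFD-STZ-DR samples, a difference of -1.06 (CI -1.66 to -0.47). The SD samples reached higher and the ranges overlapped at the low end. Cbr2 differed by -0.52 (CI -0.90 to -0.13), and the complement genes C1qa and C1qb by -0.37 and -0.34. Lyz2, the most abundant marker, had a CI of -0.70 to 0.06. The summed level ran from 14.96 to 16.16 with a median of 15.61 in SD and from 14.79 to 15.42 with a median of 15.23 in HFD-STZ-DR samples. In HFD-STZ nerve at 24 weeks the list's median difference from SD was -0.15. Lipid-associated macrophage genes, such as Trem2 and Gpnmb, were even, 8 lower and 6 higher with a median of -0.04, which is 0.00 when samples are centred. 5 of 7 MHC class II genes and 6 of 8 lymphocyte and plasma cell markers were lower, none at an unadjusted p under 0.05. When the adipocyte score was in the fit, 14 of the macrophage markers were lower, with a median of -0.21, and the medians of the lipid-associated and the lymphocyte genes were 0.06 and 0.23. In the fit with library runs 12 of the 15 macrophage markers were lower at an unadjusted p under 0.05, with the adipocyte score 1, and with single samples left out 3 to 10. Left-out ranges were -0.43 to -0.30 for the macrophage markers, -0.14 to 0.04 for the lipid-associated genes, -0.19 to -0.04 for MHC class II and -0.29 to -0.05 for the lymphocyte genes.

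Vascular and connective tissue genes leaned the same way. 11 of 12 endothelial markers were lower, 4 at an unadjusted p under 0.05 beside 4.67% of all genes, with a median of -0.22. Cldn5, at 0.14, was the other one. Esam, an endothelial adhesion molecule, ran from 11.54 to 12.10 with a median of 11.83 in SD and from 11.34 to 11.65 with a median of 11.53 in HFD-STZ-DR samples, a difference of -0.32 (CI -0.49 to -0.14). The ranges overlapped at SD replicate 4. Its difference at 16 weeks was -0.35 (CI -0.56 to -0.13). The angiopoietin receptor Tek differed by -0.34, Emcn by -0.34 and the VEGF receptor Kdr by -0.19. Endothelial summed levels ran from 15.02 to 15.60 with a median of 15.27 in SD and from 14.98 to 15.16 with a median of 15.07 in HFD-STZ-DR samples, with Vwf the most abundant. 8 of 9 mural cell markers were lower, 0 at an unadjusted p under 0.05, with a score of 12.22 in HFD-STZ-DR replicate 4 above all other samples. Their median was -0.17, and without that replicate it was -0.41, with 9 of 9 lower and 4 at an unadjusted p under 0.05, while without HFD-STZ-DR replicate 2 it was -0.07 with 0 at that level. Of 13 fibroblast and perineurial markers 12 were lower and 3 had an unadjusted p under 0.05. Those were Pi16, Dpp4 and Clec3b, genes of a connective tissue fibroblast type, at -1.30 (CI -2.16 to -0.44), -0.81 and -0.89, while Dcn, the most abundant, had a CI of -0.71 to 0.20. The summed level ran from 17.97 to 18.93 with a median of 18.71 in SD and from 17.65 to 18.78 with a median of 18.36 in HFD-STZ-DR. The fibroblast list's median moved from -0.27 to -0.11 without HFD-STZ-DR replicate 4. Once the adipocyte score was a covariate, the endothelial markers were 6 higher and 6 lower with a median of -0.01, 8 of the mural cell markers were higher with a median of 0.26, and 13 of the fibroblast markers were lower with a median of -0.20. In the fit with library runs, 8 endothelial and 5 fibroblast markers were lower at an unadjusted p under 0.05, where the adipocyte score left 0 and 0. Left-out ranges were -0.26 to -0.18 for the endothelial markers, with 4 to 7 at that level, and -0.39 to -0.11 for the fibroblast markers, with 2 to 5.

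Insulin and IGF signalling genes were lower for 12 of 16, with a median of -0.14. At an unadjusted p under 0.05 were 4 lower and 1 higher, beside 4.67% and 4.51% of all genes. The 4 lower ones became 1 without HFD-STZ-DR replicate 2, 2 without replicate 4 and 1 to 6 over all single samples left out, and with the adipocyte score as a covariate there was 1, with 7 of the list higher, 9 lower and a median of -0.07. The growth factor Igf1 differed by -0.68 (CI -1.28 to -0.08), its binding proteins Igfbp3 and Igfbp4 by -0.73 and -0.52, and the substrate Irs1 was higher by 0.23 (CI 0.05 to 0.42) with 6 of 6 samples above the SD median. The insulin receptor gene Insr was at -0.01. Of 13 matrix proteases and inhibitors, 10 were lower. Only 1 was lower (7.69%, beside 4.67% of all genes) and 1 higher at an unadjusted p under 0.05. Their median of -0.26 was -0.16 without HFD-STZ-DR replicate 4 and -0.07 with the adipocyte score as a covariate. Mmp3 differed by -1.27 (CI -2.12 to -0.41), and Adamts5, which cleaves aggrecan, was higher by 0.26 and by 0.31 in HFD-STZ at 24 weeks. Of 18 glycolysis genes 15 were lower, but the only one at an unadjusted p under 0.05, Aldoc, was higher by 0.31. Their median was -0.16, -0.29 without HFD-STZ-DR replicate 4, -0.11 without HFD-STZ-DR replicate 2 and 0.17, with 12 higher, with the adipocyte score as a covariate, and its left-out range was -0.29 to -0.01. Among 9 polyol, hexosamine and glycation genes, Ogt was higher by 0.32 (CI 0.06 to 0.58) and Gfpt2 differed by -0.70 (CI -1.34 to -0.06), with a list median of 0.06. That median had a left-out range of 0.02 to 0.08. The fit with library runs had 6 insulin and IGF genes, 5 matrix proteases and inhibitors and 4 glycolysis genes lower at an unadjusted p under 0.05, where the fit without them had 4, 1 and 0.

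Genes of the nerve fibres themselves differed little. 11 of 15 myelinating Schwann cell markers were higher, with a median of 0.07, and 1 had an unadjusted p under 0.05. That was Pmp2, a fatty acid binding protein of myelin, which ran from 7.02 to 7.89 with a median of 7.77 in SD and from 7.54 to 8.56 with a median of 8.19 in HFD-STZ-DR samples, a difference of 0.46 (CI 0.10 to 0.82). 4 of 6 HFD-STZ-DR samples lay above every SD sample, and SD replicate 5 was far below the rest. Mbp stood at -0.05. Summed levels were 21.41 to 22.17 with a median of 21.88 in SD and 21.48 to 22.07 with a median of 21.95 in HFD-STZ-DR samples. Of 14 non-myelinating and repair Schwann cell markers 10 were higher, and the injury factor Jun was lower by a difference of -0.30 (CI -0.54 to -0.07). 11 of 16 sensory neuron transcripts were higher, with a median of 0.04. Nefh, the heavy neurofilament, was higher by 0.54 (CI 0.14 to 0.94), with 6 of 6 samples above the SD median of 8.95, and ranges of 8.46 to 9.57 in SD and 9.05 to 9.97 in HFD-STZ-DR samples. Among 14 genes of the node of Ranvier and paranode, 9 were higher. The juxtaparanodal channel Kcna2 differed by 0.25 (CI 0.04 to 0.47) and the nodal anchor Ank3 by 0.19. Of 92 potassium channel genes listed, 66 passed the level filter and 40 of these were lower, with a median of -0.09. At an unadjusted p under 0.05 were 3 lower ones, Kcnj15 (-1.16), Kcnq1 (-0.40) and Kcnk3, and 2 higher ones, Kcna2 among them, and the lower ones are 4.55% of the list beside 4.67% of all genes. That count of lower ones moved from 1 to 7 with single samples left out, the most without HFD-STZ-DR replicate 4, where the median was -0.15. The left-out range was -0.15 to -0.05, and without the 4 libraries that stand apart the median was -0.01. With samples centred, 14 of the myelinating Schwann cell markers and 13 of the neuronal transcripts were higher. With the adipocyte score as a covariate the direction turned for the myelinating Schwann cell markers, 3 higher and 12 lower with a median of -0.08, and the neuronal transcripts were 7 higher and 9 lower, the nodal genes 6 and 8, the repair Schwann cell markers 7 and 7 and the potassium channel genes 35 and 31. The median of the myelinating markers was 0.03 without HFD-STZ-DR replicate 2, and without replicate 4 it was 0.15, with 15 higher, while 8 of the neuronal transcripts were higher. Left-out ranges were 0.00 to 0.15 for the myelinating markers, 0.05 to 0.13 for the repair markers, 0.00 to 0.07 for the neuronal transcripts and 0.07 to 0.20 for the nodal genes.

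Cholesterol synthesis and uptake genes were all higher, 20 of 20, by small amounts, with a median of 0.10. Of these, 3 had an unadjusted p under 0.05, beside 4.51% higher over all genes. Insig1, which holds back sterol regulatory factors, ran from 11.76 to 12.49 with a median of 12.12 in SD and from 12.16 to 12.65 with a median of 12.51 in HFD-STZ-DR samples, a difference of 0.29 (CI 0.04 to 0.54). All 6 were above the SD median, and the ranges overlapped. Mvd, an enzyme of the mevalonate pathway, differed by 0.34 (CI 0.04 to 0.64) and the sterol carrier Stard4 by 0.28. Without HFD-STZ-DR replicate 2, 17 were higher with a median of 0.05, and without replicate 4 the median was 0.16. The left-out range was 0.03 to 0.16, and at its low end, without SD replicate 5, 15 were higher. With single samples left out 1 to 6 were higher at an unadjusted p under 0.05. Their direction turned with the adipocyte score as a covariate, with 3 higher and 17 lower and a median of -0.07. Hmgcs1, the most abundant gene of the list, at 0.01, was the member whose promoter held TCACCCCAC (GTGGGGTGA on the other strand), a sterol regulatory element core. It is shown for that match, from RefSeq on GRCm38.p6, chr13:119690101-119690400 on the plus strand, with the element in capitals, 137 bases before the start of the gene.
Hmgcs1: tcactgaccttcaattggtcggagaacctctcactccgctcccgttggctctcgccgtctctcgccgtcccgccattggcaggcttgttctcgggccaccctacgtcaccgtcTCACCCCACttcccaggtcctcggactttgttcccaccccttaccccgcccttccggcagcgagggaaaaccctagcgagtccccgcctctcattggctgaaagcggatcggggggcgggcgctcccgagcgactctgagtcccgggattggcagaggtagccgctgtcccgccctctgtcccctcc
The letters are in 181 of 32851 promoters (0.551%) and in 1 of the 13 promoters of this list at hand. A match does not show binding, and the gene was chosen after its values were seen. The E-box CACGTG, the same on both strands and the sequence of Arntl and its partners, is in 7.15% of promoters and in 3 of 11 core clock promoters, those of Ciart, Cry1 and Per1, as well as in 3 of 13 promoters of the cholesterol list. 7 sequences were searched, and another, longer one was looked at before.

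**Figure D4:**
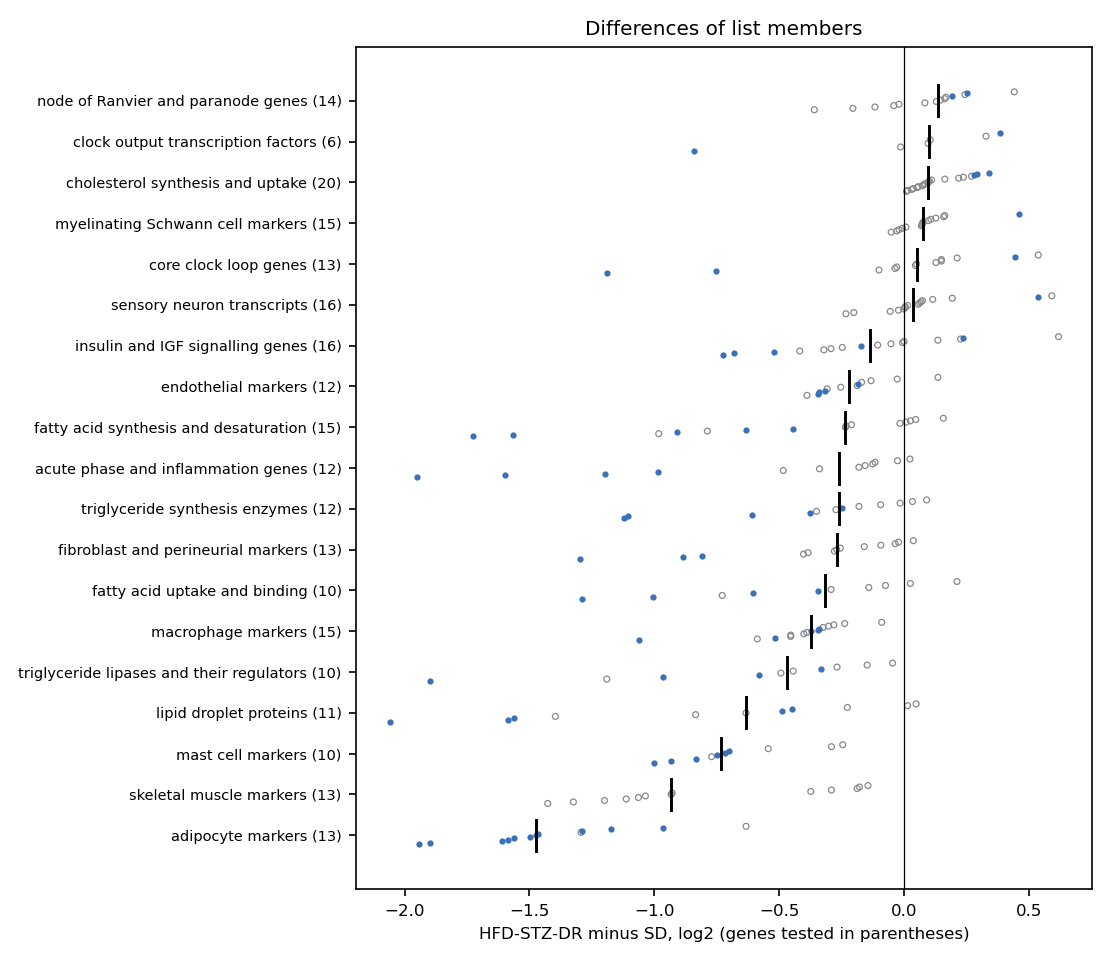
Difference HFD-STZ-DR minus SD (log2) of each member of 19 gene lists, filled where the unadjusted p was under 0.05 and open otherwise, with a bar at the list's median. Adipocyte markers reach the lowest median, -1.47, and cholesterol genes lie all on the higher side at 0.10, a side that turned with the adipocyte score as a covariate. Without SD replicate 5, 15 of the 20 cholesterol genes were higher, with a median of 0.03.

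Collagen chains were 20 higher and 23 lower with a median of -0.01, or 0.03 when samples are centred, and 3 of the 43 were higher at an unadjusted p under 0.05, beside 4.51% of all genes, and 0 lower. In the fit with library runs 4 were lower at that level. Left-out medians ran from -0.04 to 0.03, with 2 to 7 higher at that level. Col24a1, a fibrillar collagen, ran from 9.19 to 10.53 with a median of 9.64 in SD and from 9.96 to 10.94 with a median of 10.64 in HFD-STZ-DR samples, a difference of 0.79 (CI 0.35 to 1.23). 4 of 6 HFD-STZ-DR samples lay above every SD sample. It was at 0.58 in HFD-STZ and 0.81 in HFD-DR against the same SD samples. Col7a1, of anchoring fibrils, was higher by 0.83 (CI 0.21 to 1.46) after reversal, by 0.89 in HFD-DR and by 0.02 in HFD-STZ at 24 weeks. Col9a3 was higher by 0.35. Spock3, a testican proteoglycan of the matrix, ran from 8.07 to 8.58 with a median of 8.22 in SD and from 8.58 to 9.03 with a median of 8.78 in HFD-STZ-DR samples, with no overlap but the nearest values equal to 2 decimals, a difference of 0.54 (CI 0.33 to 0.75). The exact permutation p, two-sided, was 0.000333, the smallest that 3003 arrangements can give. Spock3 was named for its small p in these same samples, so this value is not independent support. HFD-STZ samples had a median of 8.43, with replicate 7 the highest at 10.97.

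Among the other genes with the smallest p on the higher side were several that are not protein-coding. Gm17907, a processed pseudogene at chr7:55902602-55903311 (GRCm38), ran from 3.77 to 5.01 with a median of 4.49 in SD and from 5.25 to 5.72 with a median of 5.58 in HFD-STZ-DR samples, without overlap, a difference of 1.06 (CI 0.68 to 1.44). HFD-STZ samples ran from 3.79 to 5.67 with a median of 4.73, and HFD-DR samples had a median of 5.13. The parent of the pseudogene was not looked for. The antisense genes Gm17597 (0.67) and 2310044K18Rik (0.74) overlap exons of Tef and of Il16. They share 9.25% and 13.1% of their stretches with those genes, and without strand the reads of these parts cannot be told apart. Tef itself was at 0.10. Rabl3, a small GTPase gene, was higher by 0.30 (CI 0.15 to 0.45) with all HFD-STZ-DR samples above all SD samples, while medians were 9.33 in SD, 9.54 in HFD-STZ and 9.59 in HFD-STZ-DR. Ttll6, a tubulin polyglutamylase, was higher by 0.63, the splicing factor Ptbp2 by 0.29, the phospholipase Plch1 by 0.29 and Ankrd37 by 0.55, whose exons overlap Lrp2bp and Ufsp2. Gm15445 (0.60) and RP23-3F1.6 (0.88) lay near the level filter. On the lower side, March3, a ubiquitin ligase, differed by -0.59, Stmn4, of the microtubule-binding stathmins, by -0.97 and the actin-bundling factor Rflnb by -0.52. The other genes without overlap on the higher side, named after their values were seen, were Gm42664 (0.66), Haus3 (0.27) and Lmbr1l (0.25), and on the lower side Ncoa5 (-0.22) and Rnpep (-0.35). Of the genes at an unadjusted p under 0.05 that could be placed, 63.7% of the higher and 96.4% of the lower ones were protein-coding, against 84.5% of all genes tested. Median levels were 8.04, 8.89 and 9.24, and the median exon numbers of the longest transcripts 4, 7 and 6.

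The 16-week samples allowed a look at disease genes in mice that share no sample with the 24-week groups. HFD-STZ and SD nerve at 16 weeks differed at an adjusted p under 0.05 for 0 of 17906 genes in limma's test, and 1511 had an unadjusted p under 0.05. Of those that were higher at 16 weeks, 704 were tested after reversal. 60.8% of them had a higher mean in HFD-STZ-DR than in SD, against 47.9% of all 17716 genes, and 9.80% were higher at an unadjusted p under 0.05, against 4.54%. Of the 791 that were lower at 16 weeks, 76.0% had a lower mean after reversal, against 52.1% of all genes, and 8.72% were lower at an unadjusted p under 0.05, against 4.70%. The medians were small, 0.05 for the higher and -0.06 for the lower genes. With centred samples the shares were 69.3% higher and 58.2% lower, beside 59.7% and 40.3% of all genes. The change from the 16-week difference to the difference after reversal was tested as an interaction. 0 of 17919 genes passed in limma's test, with a smallest adjusted p of 0.643, and 1049 had an unadjusted p under 0.05. The genes given next were named through comparisons that use the same HFD-STZ-DR samples, so their estimates are not independent of that choice. Slc5a7 had an estimate of -2.83 (CI -4.07 to -1.59), Stmn4 of -1.43 (CI -2.07 to -0.80) and Ffar2 of -2.38 (CI -3.71 to -1.05).

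**Figure D5:**
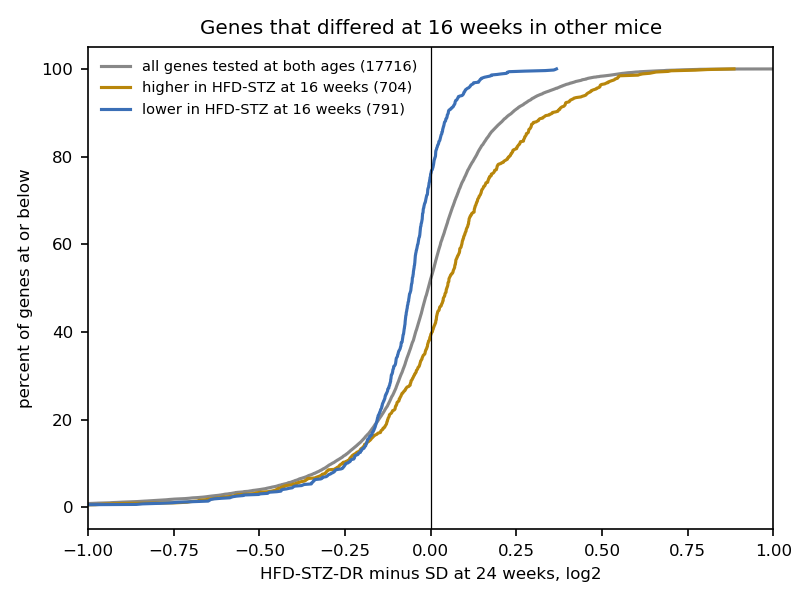
Cumulative share of genes by their difference HFD-STZ-DR minus SD (log2) at 24 weeks, for all 17716 genes and for those higher (704) or lower (791) in HFD-STZ at 16 weeks at an unadjusted p under 0.05. The curves of the higher and lower genes lie on either side of that of all genes, with medians of 0.05 and -0.06.

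HFD-DR mice had the same diets without STZ. Between HFD-STZ-DR and HFD-DR nerve, 0 of 18217 genes passed in limma's test and 653 had an unadjusted p under 0.05, and between HFD-DR and SD nerve these numbers were 0 of 18176 and 936. The median difference of the adipocyte markers was -1.03 between HFD-STZ-DR and HFD-DR, with 3 of 13 lower at an unadjusted p under 0.05, and -0.46 between HFD-DR and SD. The smallest adjusted p between the reversed groups was 0.999 in limma's test. The genes given next had a small p against SD in the same HFD-STZ-DR samples. A shared sign here is therefore not independent. With HFD-DR as the reference, Orm1 had a difference of -1.47 (CI -2.34 to -0.60), Klb of -1.20 (CI -2.01 to -0.40) and Plin2 of -0.36 (CI -0.54 to -0.17). For Rnd1 the difference between the reversed groups was -0.25 (CI -0.65 to 0.14), for Fas -0.08 (CI -0.25 to 0.09) and for Hdc -0.38 (CI -0.85 to 0.08). Npas2 differed between them by -0.80 (CI -1.28 to -0.31) and Arntl by -0.50 (CI -0.89 to -0.12).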

How the data were processed

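RNA of whole SCN was sequenced by the study from polyadenylated, non-stranded libraries. By its methods and the submitters' processing notes, reads were aligned to mm10 with HISAT2 and counted with featureCounts, and DESeq2 is named. The authors deposited 1 log2 value for each gene and sample, and the methods name FPKM for expression levels, but whether the deposited values come from FPKM or how else they were normalised is not given in the sources used here. The methods give an approximate number of reads per sample, but the counts behind each value were not at hand, so precision was taken from the spread between samples. The labels name other extraction and library kits than the methods do. Values ran from -2.39 to 20.40 in the 14 samples, 2180 genes were listed at 0 in all of them, and 0 genes had a value above 22, while 25 had one in some of the 53. Differences between group means of log2 values were tested with limma 3.58.1 in R 4.3.3, with a trend of the variance prior on expression and Benjamini-Hochberg adjustment over all genes tested, on the groups compared only and with no covariate. limma took the place of a count model because the values are log2. The fits were tested on simulated data. Exact permutation tests, two-sided, used all 3003 arrangements of the 14 samples. Scores are mean log2 values of a list's markers, and a summed level is the log2 of the sum of their linear values. The members and the 42 gene lists were chosen with earlier results of these data known. Genes named are the 12 with the smallest p in each direction, those past the threshold in either 24-week comparison with HFD-STZ, those the study names, up to 4 members of each list with the smallest unadjusted p under 0.05, the most abundant marker of each cell type, and the clock genes. A few genes that this rule names are not reported here. Other list members, and genes named for groups that do not overlap, were named outside it after values were seen. The genes and lists drawn in plots, and the promoters shown, were picked after values were seen. Alternatives were no filter on low values, the filter in every sample, values above 22 kept, a prior without trend, a robust prior, all 8 groups in 1 fit, the run of library numbers added to either fit, centring, an adipocyte or a muscle score as a covariate, and leaving out each sample. Both scores together, leaving out the 4 libraries that stand apart, dropping genes above 22 in any of the 53 samples, and leaving out single samples in the 2 HFD-STZ comparisons at 24 weeks were chosen after seeing the data. Genes were placed with GENCODE M21 and promoters taken from RefSeq.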

Additional observations from a re-analysis of the deposited data

Results flagged for a closer look

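Among 308 sets of values, each a named gene or a cell type score in SD or HFD-STZ-DR samples, 27 held a sample far from the others of its group, judged by the gap to its neighbour against the whole range. Chance gives such a sample in about 1 in 20 sets. The values below are on the log2 scale. HFD-STZ-DR replicate 2 lay far below its group for the adipocyte genes Pck1 (7.99), Adrb3 (5.13) and Retn (7.48), for the mast cell proteases Cpa3 (6.64), Cma1 (6.10) and Tpsb2 (7.45) and for Hp (9.03) and Lrg1 (8.75). HFD-STZ-DR replicate 4, the sample with the highest muscle score of its group, lay far above the others for Tph2 (5.42), Acta2 (15.47), Zbtb16 (10.44) and Rora (11.97) and for the mural cell score (12.22), and far below them for Bscl2 (10.75) and Acly (12.88). HFD-STZ-DR replicate 1 was far below its group for Tfr2 (4.53). SD replicate 4 was far above the other SD samples for Pik3ip1 (13.23) and far below them for March3 (6.46), Adrb3 (6.18), Fabp4 (11.78), Ifi27l2a (10.12) and Kcnk3 (6.21). SD replicate 5 was far below for Pmp2 (7.02) and far above for Rora (12.15). SD replicate 6 was far above for Npas2 (8.69) and far below for Hbb-bs (8.30) and Cry1 (9.69).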

How the results depend on the processing

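Of the named genes, 109 had an unadjusted p under 0.05 in HFD-STZ-DR against SD, and 102 of these had the same sign in every alternative of that comparison that held them, 28 for most and 27 for 4 of them, while 7 changed sign in some. Of the 32 others, 16 changed sign. Past the adjusted threshold in at least 1 alternative were 12 named genes. The count past that threshold was 0 in limma's test with all 14 samples. It was 1 with no filter on low values (Gm25999), 1 with all 8 groups in 1 fit (Slc52a3) and 1 when runs of library numbers entered as a covariate (Klb), 0 to 21 with single samples left out, the highest without SD replicate 4, and 0 in the other alternatives. The count at an unadjusted p under 0.05 was 248 with the adipocyte score, 265 with both scores as covariates, and from 1008 to 2094 with single samples left out, the lowest without HFD-STZ-DR replicate 2 and the highest without SD replicate 4. Without the 4 libraries that stand apart it was 1602, with 0 past the adjusted threshold. With all 8 groups in 1 fit, 16 genes passed between HFD-STZ and SD at 24 weeks, 47 between HFD-STZ-DR and HFD-STZ, and 1 between HFD-STZ and SD at 16 weeks. With single samples left out, the first of these counts ran from 4 to 19 and the next from 0 to 167. Signs that changed belonged mostly to genes with small differences or to adipocyte genes once their score was in the fit, and the cause was not tested. With the adipocyte score as a covariate, the differences from SD were Kcnj14 0.23, Tph2 0.21, Lpl 0.32, Cd36 0.040, Lpgat1 0.057, Car3 0.23, Acta1 1.48, Pmp22 -0.057, Scn7a -0.060, Ighm 0.48, Acta2 0.30, Sncg -0.029, Hbb-bs -0.11, Lipe 0.030, Fabp4 0.035, Kcnk3 0.0078 and Bhlhe40 0.036. With both scores as covariates they were Kcnj14 0.26, Tph2 0.029, Lpl 0.11, Lpgat1 0.024, Car3 0.0091, Pmp22 -0.017, Scn7a -0.028, Ighm 0.40, Tpsb2 0.040, Vwf 0.022, Acta2 0.13, Hbb-bs -0.42, Plin1 0.0059, Lipe 0.066, Clock 0.0014 and Bhlhe40 0.035. With samples centred on their median the values were Clock 0.0057 and Bhlhe40 0.029, without the 4 libraries that stand apart Kcnj14 0.25, and with the run of library numbers Cry2 -0.0050. With single samples left out, differences ran for Tph2 from -0.49 to 0.021, for Ighm from -0.42 to 0.024, for Hbb-bs from -0.28 to 0.54, for Clock from -0.11 to 0.0072, for Cry2 from -0.0076 to 0.11, for Rora from -0.11 to 0.20, for Bhlhe40 from -0.053 to 0.035. The scores are computed from the same samples as the differences, so a fit with the adipocyte score also takes up part of any group difference in that score. The labels give no replicate numbers that pair samples across groups, and runs of library numbers served as the covariate above. The counts behind the values are unknown, and with 6 and 8 samples the median CI reached 0.29 on either side. Both scores as covariates, the fit without the 4 libraries, the removal of genes above 22 in any of the 53 samples (1640 unadjusted) and the left-out samples of the HFD-STZ comparisons were chosen after seeing the data.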

Other observations

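Genes of respiration and translation had small differences, most of them lower with all 14 samples and the values as deposited. Of 75 nuclear-encoded subunits of oxidative phosphorylation 67 had a lower mean in HFD-STZ-DR than in SD nerve, with a median of -0.09, which is -0.04 with samples centred, and all 13 mitochondrially encoded genes were lower, with medians of -0.12 and -0.08. Cytosolic ribosomal protein genes were lower for 60 of 79, a median of -0.05, and with samples centred 34 of them were higher. With all 14 samples, 0 genes of these lists reached an unadjusted p under 0.05. Without HFD-STZ-DR replicate 4, 74 of the nuclear-encoded subunits were lower, 9 at an unadjusted p under 0.05, with a median of -0.28, and the medians were -0.49 for the mitochondrially encoded and -0.11 for the ribosomal protein genes. The nuclear-encoded subunits had a median of -0.05 without HFD-STZ-DR replicate 2. The direction turned with the adipocyte score as a covariate, with 71 of the nuclear-encoded subunits higher, a median of 0.13, and 11 of the mitochondrially encoded genes higher, a median of 0.07. With the muscle score as a covariate these medians were -0.01 and 0.01, and in the fit with library runs -0.03 and -0.22. Left-out ranges were -0.28 to -0.02, -0.49 to 0.05 and -0.12 to 0.00 for the 3 lists. Without SD replicate 5, 11 of the 13 mitochondrially encoded genes were higher. Immediate early genes, which respond within minutes to stimulation or handling, were lower for 13 of 14, with a median of -0.25, and the phosphatase gene Dusp1, at -0.55 (CI -0.97 to -0.13), had an unadjusted p under 0.05. Without the 4 libraries that stand apart the median was -0.41 with 5 at that level. For heat shock genes it was 10 of 11, with a median of -0.16, and 0 reached that level, or 2 when runs of library numbers entered the fit. Red blood cell markers were higher for 6 of 6 and cell cycle genes for 10 of 15, with medians of 0.16 and 0.05, and with the adipocyte score as a covariate 6 of the red blood cell markers were lower. Both medians took either sign when single samples were left out, from -0.27 (without SD replicate 6) to 0.50 (without HFD-STZ-DR replicate 1) for the red blood cell markers and from -0.05 (without HFD-STZ-DR replicate 5) to 0.11 (without HFD-STZ-DR replicate 2) for the cell cycle genes, and that of the red blood cell markers was 0.04 in the fit with library runs. The ranges of the immediate early and heat shock genes were -0.30 to -0.14 and -0.23 to -0.13. 2 of 8 keratinocyte markers passed the level filter, 1 lower and 1 higher. Krtdap was at -1.22 (CI -1.98 to -0.45), and Krt10, the most abundant of the list, was at 0.17.

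The study chose 100 genes whose expression varied with lipids of the nerve, on samples of this series, so their direction here is not independent evidence. Of these, 93 passed the level filter and 7 are also adipocyte markers. 88 had a lower mean in HFD-STZ-DR than in SD nerve, with a median of -0.87. Of these, 45 had an unadjusted p under 0.05, beside 4.67% lower over all genes. With the adipocyte score as a covariate 53 were lower, with a median of -0.04. In HFD-STZ against the same SD samples the list's median was 1.00. 5 of the 8 genes that its text names passed the level filter, and all were lower after reversal, with a median of -1.01 and 3 at an unadjusted p under 0.05, or of 0.04 with that covariate. With single samples left out the medians ran from -1.08 to -0.67 for the first list and from -1.23 to -0.72 for the other, with 38 to 57 and 2 to 5 lower at an unadjusted p under 0.05.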
